A study of Bos taurus with 72 samples.

Results

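The gene ENSBTAG00000054661 was described across 12 treatment media in bovine mammary epithelial cells (BMECs). It is 1 of the 29550 genes in the expression table, and it was chosen by a measured value, as a short gene with the highest FPKM of all genes in many libraries. FPKM stands for fragments per kilobase of gene, scaled for sequencing depth, so the reads on a gene are divided by its length and by a factor of the library. The table pairs the gene with no symbol, position or biotype, and a bovine reference table of 37063 genes held 0 of the identifiers. The labelled cell type could therefore not be checked against its marker genes, and the gene is called by its identifier here.

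The essential amino acids (EAA) are those that an animal's own cells do not make in sufficient amounts, so they have to be supplied. BMECs use them to build the caseins and whey proteins of milk. Cultured cells that lack an EAA slow protein synthesis and change the transcription of many genes. FPKM lets levels be compared between genes of different length. A gene that is shorter than the sequenced fragments gets a large FPKM from few reads, and the count behind the value then says more than the value itself. Annotated mammalian genes of this size are commonly small non-coding RNAs, but the kind of this gene cannot be read from the files.

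All 72 libraries came from wild-type BMECs at 6 passages, grown out of mammary gland tissue of healthy dairy cows and separated from fibroblasts by trypsin. The cells were starved of serum overnight and then kept for 6 h in DMEM-F12 medium devoid of every EAA (NEG), in complete DMEM-F12 medium (POS), or in the NEG medium with 1 EAA added, which gave the treatments Arg, His, Ile, Leu, Lys, Met, Phe, Thr, Trp and Val. Each treatment had 6 replicates. The study calls the samples of a treatment biological replicates. Nothing in the labels says that they came from separate cows or cultures, so p-values measure only the spread between these samples, which may be technical. RNA was measured in bulk, where fewer cells of a type and less RNA per cell cannot be told apart. The libraries held between 12006111 and 18602430 reads on genes. In Arg_4, Leu_1 and POS_4, 11838, 10495 and 13537 genes were above 0, against 15211 to 18393 in the other libraries, and results that rest on these 3 libraries are also given without them.

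ENSBTAG00000054661 had a recovered length of 55 bp, shorter than the reads that the study sequenced. A full-length read counted on it extends past its ends, and whether such reads come from a longer transcript was not tested. The FPKM of the gene was the highest of all genes in 33 of the 72 libraries, and these were the values that chose it. They included all 18 libraries of NEG, Phe and Thr, 4 of Arg, 3 of Met, 2 each of Ile and Lys, 1 each of His, Trp, Val and POS, and none of Leu. The lowest FPKM at which the gene led a library was 6712, in Lys_1, and the highest at which it did not was 6451, in Trp_3. The gene that led most of the other libraries was ENSBTAG00000002006, with 27 of them. In Phe_4 the FPKM of ENSBTAG00000054661 was 12.1 times that of the next gene, and it made up 14.1% of the summed FPKM of the library.

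The reads behind these values placed the gene much lower. It was among the 10 highest genes of a library in 64 libraries by FPKM and in 0 libraries by reads, where its best rank was 13. Its median rank over the 72 libraries was 2 by FPKM and 495.5 by reads. The highest share of the reads was 0.417% in Phe_4 (95% Clopper-Pearson interval 0.414% to 0.420%), and the lowest was 0.00085% in Val_6 (0.00071% to 0.00101%), which rests on 132 reads. These intervals cover counting error only, since copies made by PCR were not marked. The gene took 1149192 reads over the 72 libraries, so in most libraries counting error was small beside the differences between replicates.

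**Figure D1:**
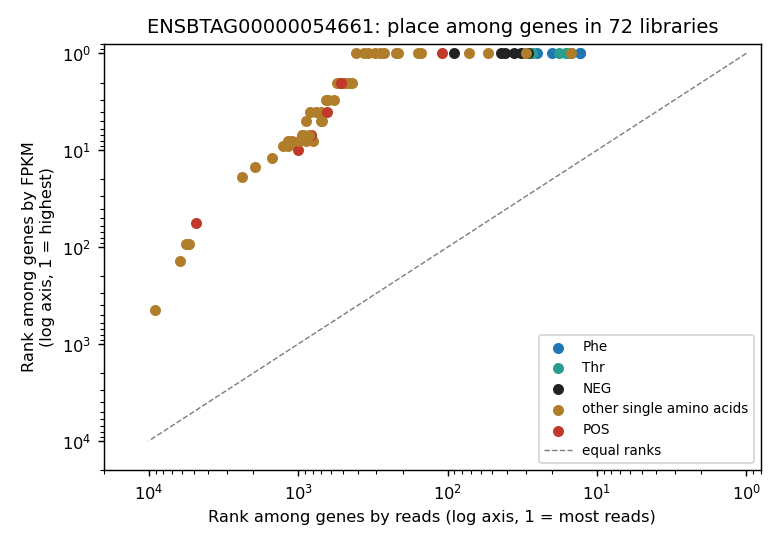
Rank of ENSBTAG00000054661 among all genes in each of the 72 libraries by FPKM (vertical) against its rank by reads (horizontal), both on log axes that run toward rank 1, with colours for the media and a dashed line for equal ranks. Every library lies above the line, and libraries in which the gene ranked 1 by FPKM had ranks from 13 to 411 by reads.

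In the mean over the libraries, no other gene as short came near this level. Of the 762 other genes under 100 bp with a read in any library, 196 averaged 1 FPKM or more and were tested, and their median was 2.87 FPKM. The highest of them was ENSBTAG00000049469, a gene of 56 bp with a mean of 398 FPKM, beside a mean of 18054 FPKM for ENSBTAG00000054661. It was nevertheless the higher of both in 5 libraries, Leu_1, POS_4, Val_4, Val_5 and Val_6. Another 7 genes had the same recovered length of 55 bp. ENSBTAG00000054257 had the most reads of these, 1162 over all libraries, and each of the remaining 6 had at most 28.

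The level of ENSBTAG00000054661 was high in the medium without EAA and in the media with Phe or Thr added, where the medians lay above that of NEG but the gene was not called a differentially expressed gene (DEG). It was lower in complete medium and with each of the other 8 EAA, although 3 of the 6 libraries of Met and single libraries of several other treatments were high. The lowest and highest libraries were Val_6 with 143 FPKM and Phe_3 with 76353 FPKM, a 536-fold range. The SD of log2(FPKM + 1) over the libraries was 2.01, the highest of the 12121 genes that averaged 1 FPKM or more, whose median was 0.39. Media accounted for 68.9% of the variance of log2(FPKM + 1) over the libraries (one-sided permutation test, 100000 permutations, p = 1e-05, the smallest they can give), and for 71.0% without Arg_4, Leu_1 and POS_4.

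**Figure D2:**
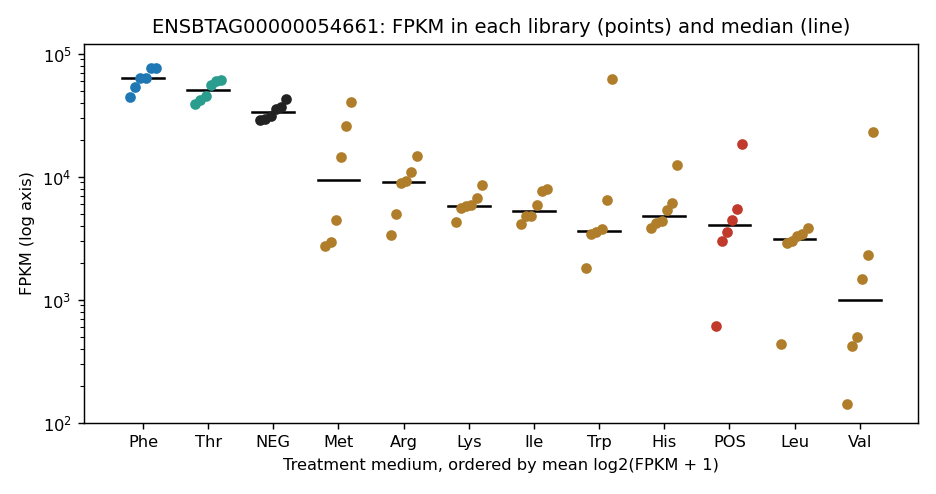
FPKM of ENSBTAG00000054661 on a log axis in the 6 libraries of each medium (points) with their median (line), the media ordered by the mean of log2(FPKM + 1). Phe, Thr and NEG lie between 28922 and 76353 FPKM in every library, and Trp, Val, POS and Met each spread over more than 14-fold.

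In NEG the FPKM ran from 28922 through a median of 33392 to 42766, a mean of 34142 ± 5295 (SD, n = 6). Replicates of this control were the closest of all media, with an SD of 0.22 on the log2 scale. Of the 54 libraries outside NEG, Phe and Thr, only Met_6 with 40214 FPKM and Trp_1 with 62289 FPKM lay above the lowest library of NEG.

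Phe gave the highest level, from 44815 through a median of 63843 to 76353 FPKM. All 6 libraries lay above all 6 of NEG. The difference on the log2 scale was 0.87 (SE 0.17, 95% interval 0.51 to 1.24), with an adjusted p of 0.025 by limma with Benjamini-Hochberg adjustment and p = 0.00216 by the two-sided exact permutation test. That p is the smallest that the 924 splits of 6 against 6 libraries can give. The adjusted limma p did not stay under 0.05 without Phe_2 (0.061), Phe_4 (0.057) or Phe_5 (0.066), nor with the replicate number as a block (0.11). It was 0.54 in 1 fit of all 12 treatments and 1 with no filter on low FPKM. The gene was not a DEG in this comparison, since a DEG needed a change of more than 1 on the log2 scale in either direction beside a limma p below 0.05 before adjustment. Such DEG made up 0.38% of the 12121 genes tested.

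Thr came second, from 39255 through a median of 50774 to 61010 FPKM, and 4 of its 6 libraries lay above all of NEG. The log2 difference from NEG was 0.56 (SE 0.16, 95% interval 0.22 to 0.91). It missed the limit after adjustment over all genes (limma, adjusted p = 0.087) but passed it without NEG_2 (0.014), while the exact permutation test of the gene alone gave p = 0.00649. The gene was not a DEG here either, where 0.512% of the genes were called. The differences of Phe and Thr from NEG were smaller in size than those of the other 9 treatments.

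With the other 8 EAA and in POS the gene was a DEG, lower than in NEG, in 9 of 9 comparisons. With no filter on low FPKM, limma called 3 of these 9, Leu, Lys and Val, and the calls of POS, Arg, His, Ile, Met and Trp were lost (p from 0.055 to 0.53). All of these share the NEG libraries, so they are not independent of each other.

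Lys and Ile gave the tightest of these falls. In Lys the FPKM ran from 4260 through a median of 5815 to 8551, and in Ile from 4146 through 5312 to 7948. Every library of both lay below every library of NEG, and their own replicates stayed within 2.01-fold and 1.92-fold. The log2 fold change was −2.50 for Lys (SE 0.16, limma adjusted p = 6.5e-06) and −2.57 for Ile (SE 0.19, adjusted p = 1.4e-05). Only 1.66% and 1.58% of the genes were DEG in these comparisons.

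Falls of similar size were seen with His and Arg. His libraries lay between 3862 and 6148 FPKM except for His_1, with 12464, and their median was 4839. Arg libraries ran from 3364 through a median of 8998 to 14798 FPKM. No library of either reached the range of NEG. The log2 fold change was −2.61 for His (SE 0.25, limma adjusted p = 0.00011) and −2.12 for Arg (SE 0.33, adjusted p = 0.0072), or −2.16 for Arg without Arg_4. With the replicate number as a block, the limma adjusted p for Arg was 0.061. DEG made up 4.59% of the genes in His and 3.15% in Arg, or 1.17% in Arg without Arg_4.

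Leu and Val gave the lowest levels. In Leu, 5 libraries lay between 2903 and 3801 FPKM and Leu_1 at 438, and the median was 3139. In Val, the libraries held 143, 424, 501, 1477 and 2312 FPKM and, in Val_3, 23006 FPKM. None reached the lowest library of NEG. The log2 fold change was −3.85 for Leu (SE 0.46, limma adjusted p = 0.00019), where 16.9% of the genes were DEG, and −3.37 without Leu_1, where 8.13% were. It was −4.87 for Val (SE 0.90, adjusted p = 0.00087), where 11.8% of the genes were DEG. Without Val_3 the change was −5.73, and without Val_6 it was −4.27.

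Met and Trp did not separate from NEG in every library. The Met libraries fell into a high set, Met_1, Met_2 and Met_6 with 14513, 25963 and 40214 FPKM, and a low set, Met_3, Met_4 and Met_5 with 2750, 2962 and 4462 FPKM. Only 5 of the 6 lay below all of NEG. The log2 fold change was −1.90 (SE 0.60, limma adjusted p = 0.019, 3.78% of the genes called), and the exact permutation test gave p = 0.0216. In Trp, 5 libraries lay between 1820 and 6451 FPKM and below all of NEG, while Trp_1 with 62289 FPKM lay above all of NEG. The log2 fold change was −2.58 with Trp_1 (SE 0.63, limma adjusted p = 0.0078, 3.09% of the genes called) and −3.27 without it. The exact permutation test over all splits gave p = 0.0152 for Trp. The labels state no pairing, and a check on the data gave only weak ground for pairing Trp with NEG by replicate number. If they are so paired, 5 of the 6 pairs were lower in Trp, and an exact test by sign flips gave p = 0.0625.

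In complete medium the FPKM ran from 609 in POS_4 through a median of 4017 to 18629 in POS_1. All 6 libraries lay below all of NEG. The log2 fold change was −3.16 (SE 0.59, 95% interval −4.43 to −1.88, limma adjusted p = 0.0017), and −2.63 without POS_4. DEG made up 10.4% of the genes in POS, or 7.13% without POS_4. The two-sided exact permutation p for POS, Arg, His, Ile, Leu, Lys and Val was the smallest possible, 0.00216, or 0.00298 after Benjamini-Hochberg adjustment over the 11 comparisons.

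**Figure D3:**
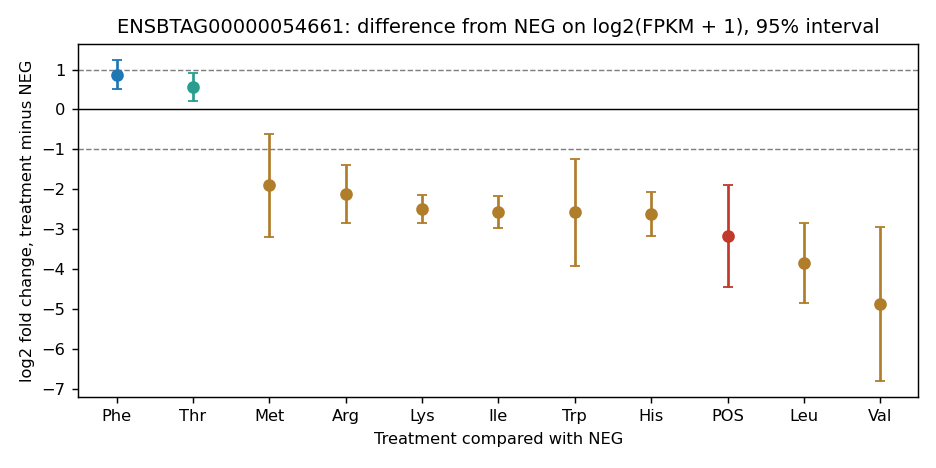
Fitted difference of each treatment from NEG in log2(FPKM + 1) of ENSBTAG00000054661 (points) with 95% intervals from limma (bars), with dashed lines at the fold limits of 1 and −1. Phe and Thr lie between 0 and 1, and the other 9 lie below −1, the intervals of Met, Trp and Val being the widest of the single EAA.

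Ordered by the mean of log2(FPKM + 1), the media were Phe (15.92), Thr (15.61), NEG (15.05), Met (13.14), Arg (12.93), Lys (12.55), Ile (12.47), Trp (12.47), His (12.44), POS (11.89), Leu (11.19) and Val (10.18). The steps from Phe to Thr, from Thr to NEG and from NEG to Met were larger than the pooled SD of the media on either side. None of the 8 steps below Met was. The ranges of neighbouring media overlapped in all 11 cases. Media further apart in the order could separate in full, and all 6 libraries of Leu, at most 3801 FPKM, lay below all of Lys, Ile and His, the lowest of which held 3862 FPKM.

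Replicates of 1 medium differed unevenly. The range within a medium was 0.56 on the log2 scale in NEG, 0.64 in Thr and 0.77 in Phe, against 3.87 in Met, 4.93 in POS, 5.10 in Trp and 7.32 in Val. The other genes of the libraries were summarised beside this spread. The first principal component (PC1) of the other 12120 genes tested held 47.8% of their variance, and its score, with its sign set so that NEG is positive, was 28.5 in Trp_1 and from −36.9 to 20.7 in the other Trp libraries. In Val the score was 34.4 in Val_3 and between −45.1 and −32.8 in the others. POS_1 scored 43.7 and its replicates at most 28.1, His_1 scored 19.2 and its replicates at most −4.71, and Leu_1, the lowest of Leu, scored −161. The high libraries of Met were not alike, since Met_1 and Met_6 scored 24.3 and 22.2 but Met_2 scored −16.2, close to the −16.6 of Met_5 in the low set.

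Over the 72 libraries, log2(FPKM + 1) of the gene had a Pearson r of 0.78 and a Spearman rho of 0.85 with this PC1 score (permutation p = 1e-05 each, the smallest that 100000 permutations give). Within media, from deviations from the treatment means, r was 0.69 and rho 0.70 (p = 1e-05 each by permutation inside the treatments). The relation was added after the data were seen, and r was 0.78 without Leu_1 and POS_4, the libraries farthest from the median of the score.

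Measures of the libraries moved with the gene as well. Its r with the reads counted on genes was 0.47 (rho 0.46), with the number of genes above 0 it was 0.53 (rho 0.73), and with the reads on other genes under 200 bp it was −0.53 (rho −0.48). The permutation p, adjusted over these 3 relations, was at most 4e-05 for each. Without the 2 libraries farthest from the median of each measure, r was 0.44, 0.65 and −0.52. Within media it was 0.41 (p = 0.0025), 0.52 (p = 1e-05) and −0.24 (p = 0.046) by permutation inside the treatments, and the last became −0.15 (p = 0.23) without Arg_4, Leu_1 and POS_4. The part of these library measures in the differences between media was not tested.

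Many genes followed ENSBTAG00000054661 over the libraries, and the following correlations are descriptions with no test. Of the other 12120 genes tested, which average 1 FPKM or more over the libraries, 4382 (36.2%) had a Spearman rho of at least 0.5 with it and 3004 (24.8%) had one of at most −0.5, and the median was 0.18. From deviations within media, 3277 and 2069 genes passed these limits, 3137 and 1983 of which were among the former. The points share their libraries and the scaling of each library. With the reads scaled by library totals, the numbers were 3904 and 3388.

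The gene most like it was ENSBTAG00000054257, which also has a recovered length of 55 bp, with a rho of 0.905 and an r of 0.906 over the 72 libraries. Within media its rho was 0.72 and its r 0.82, where 154 genes had a higher rho. It was far lower, with a mean of 18.3 FPKM and 16.1 reads a library. It had a median of 40.5 reads in NEG, 54 in Phe and 36.5 in Thr, and medians from 0.5 to 7.5 in the other 9 media. It was at 0 in 9 libraries. In Trp, Val, POS and Met the libraries that stood high for ENSBTAG00000054661 stood high for it too, while the library with the highest level was another one in 5 of the 12 media, NEG, Arg, His, Ile and Thr. It had 80 reads in Trp_1 and 0 to 2 in the other Trp libraries, 30 in Val_3 and 0 to 2 in the other Val libraries, and 17 in POS_1 and 0 to 4 in the other POS libraries. In Met it had 12, 10 and 16 reads in Met_1, Met_2 and Met_6, against 0 to 2 in the low set. In His it had 5 reads in His_1, below the 10 of His_2 and the 6 of His_6, and in Arg it had 11 reads in Arg_6, below the 17 of Arg_4.

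The reads of ENSBTAG00000054257 came to 0.101% of those of ENSBTAG00000054661 over all libraries, and to between 0.0181% and 0.293% in the 63 libraries where it was above 0. A gene of the same length and pattern can share reads with a near-identical copy. Whether the sequences are alike was not analysed here, so its level is uncertain as a measure of its own.

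**Figure D4:**
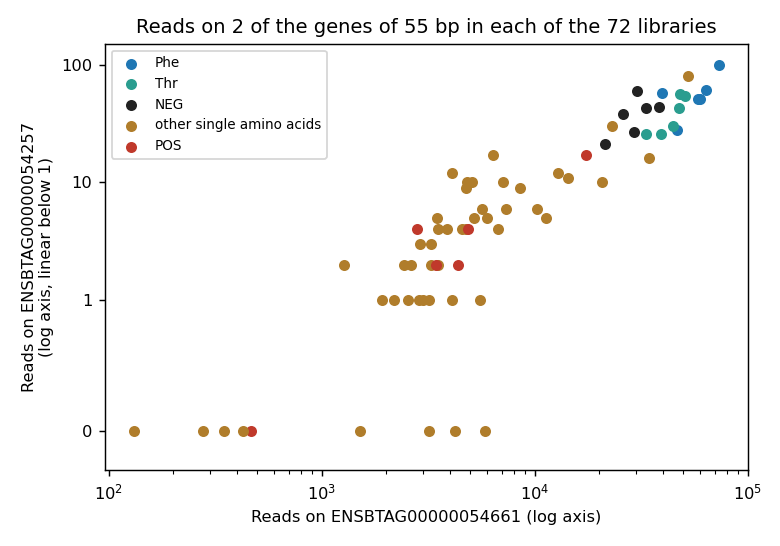
Reads on ENSBTAG00000054257 (vertical, log axis that is linear below 1) against reads on ENSBTAG00000054661 (horizontal, log axis) in each of the 72 libraries, coloured by medium. The 18 libraries of NEG, Phe and Thr have 21 to 99 reads on the vertical axis, and the 9 libraries at 0 had at most 5828 reads on ENSBTAG00000054661.

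The next 4 by rho were longer genes, ENSBTAG00000008147 (0.876), ENSBTAG00000009495 (0.875), ENSBTAG00000007152 (0.873) and ENSBTAG00000001933 (0.872), of 2440 to 4680 bp. Their medians moved much less than that of ENSBTAG00000054661. ENSBTAG00000009495, for example, had a median of 107 FPKM in NEG, 108 in Phe, 118 in Thr, 56.6 in Leu and 49.99 in Val. The lowest rho was −0.895 for both ENSBTAG00000009732 and ENSBTAG00000013211, whose medians were 14.3 and 8.79 FPKM in NEG and 27.3 and 17.1 FPKM in Val.

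None of the other genes that led a library by FPKM had a rho of at least 0.5 with it. ENSBTAG00000002006 had a rho of 0.06, and ENSBTAG00000006189, ENSBTAG00000050435 and ENSBTAG00000038488, which led 6, 5 and 1 libraries, had a rho of −0.39, −0.56 and −0.57. ENSBTAG00000002006 stayed between 2764 and 7685 FPKM over all libraries, a 2.78-fold range.

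The share of genes that followed it was lower among short genes, which also had fewer reads. Among the 196 other genes under 100 bp, 6.12% had a rho of at least 0.5 and 4.59% one of at most −0.5, and the median rho was −0.01. Among the 4119 genes of at least 500 and under 2000 bp the shares were 39.4% and 18.1%, with a median of 0.30. Genes under 100 bp rested on few reads, with a median of 3.29 a library, and the part of this in their lower share was not tested. Of the genes under 100 bp, 4 had a mean of at least 100 reads, and each had a rho of at most −0.5. Among genes with as many reads, a rho of at least 0.5 was held by 3 of the 11 of at least 100 and under 200 bp (27.3%). The share was 32.6% for those of at least 200 and under 500 bp. It was 42.6% for those of at least 500 and under 2000 bp and 37.4% for those of 2000 bp or more. The shares with a rho of at most −0.5 were 9.09% to 32.2% over the classes of at least 100 bp. The 4 genes under 100 bp were ENSBTAG00000049469 (−0.70), ENSBTAG00000045885 (−0.53), ENSBTAG00000036401 (−0.73) and ENSBTAG00000049982 (−0.51), named after their values were seen. Within media their rho was −0.52, −0.46, −0.33 and −0.05 in the same order, so only the first stayed past −0.5. The median FPKM of ENSBTAG00000049469 was 173 in NEG, 210 in Phe and 187 in Thr, against 631 in Val and 490 in Leu, but it was also low in POS, at 149.

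**Figure D5:**
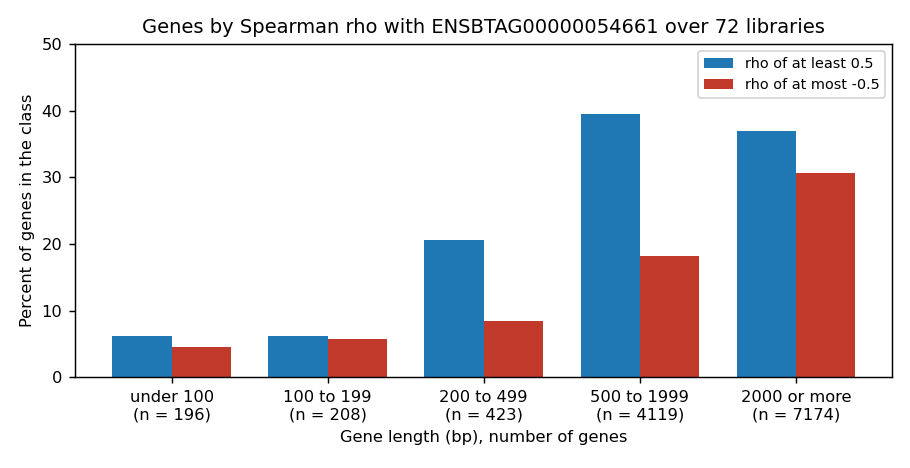
Percent of the genes of each length class, in bp, whose Spearman rho with ENSBTAG00000054661 over the 72 libraries was at least 0.5 (blue) or at most −0.5 (red), with the number of genes under each class. The blue bars stand at 6.12% for the 196 genes under 100 bp and at 39.4% for the 4119 genes of at least 500 and under 2000 bp.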

How the data were processed

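Poly-A RNA of BMECs was sequenced in 72 libraries, 12 treatments with 6 replicates each. Per the study's methods, the authors used Trimmomatic for trimming, HISAT2 for mapping to the cattle genome and StringTie for assembly, and then counted reads per gene. The labels and the study's text name different library kits (SMARTER mRNA-Seq and TruSeq Stranded mRNA), and the study's text gives htseq-count and cufflinks as counting tools. The submitters' processing notes list HISAT2 2.0.5, StringTie 1.3.3b, featureCounts 1.5.0-p3 and DESeq2 1.20.0. The genome build and the strand setting of the counting are not given in the sources used here, so reads of overlapping or antisense genes cannot be told apart. The deposited values are FPKM, and all 72 columns were used, each assigned by its name.

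Reads were recovered as FPKM times gene length times a library factor. A length at which every value of a gene gave a whole number of reads was found for all 23683 genes above 0. Lengths were searched on this condition, so the 100.0% of values above 0 within 0.001 of a whole number follow from it. The factor was proportional to median-of-ratios size factors. In reads simulated for 23236 genes, 99.97% of the genes were recovered in full. The lowest chi-square per degree of freedom between replicates of a treatment was 2.99 over 180 pairs, so none of these pairs differed by as little as sampling noise.

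Each treatment was compared with NEG by limma 3.58.1 (R 4.3.3) on log2(FPKM + 1), with the prior variance following mean level, in fits of 12 libraries and the 12121 genes that averaged 1 FPKM or more over all 72. Fold changes on this scale understate the change of low genes. On simulated POS and NEG libraries with 200 of 12121 genes changed 4-fold, 97% of the changed genes and 0 unchanged genes were called. The simulation gave every gene the same spread beyond counting error and had no outlying library. Only genes with many reads were changed in it, so these rates need not hold for the comparisons here. Exact tests used all 924 splits. Permutations, correlations and the PCA used Python 3.11.15, numpy 2.4.6, pandas 2.3.3 and scipy 1.17.1, with figures by matplotlib 3.10.9.

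The gene, the lists and the tests were chosen with earlier results of these data known. Named are the gene, the 5 genes with the highest and the 2 with the lowest rho, and the other genes that led a library. The remaining short genes were named after their values were seen. Lists of marker genes were not run, since no symbol matched.

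Alternatives were a pseudocount of 0.1, no filter, scaling by total reads, voom on recovered reads, 1 fit of all 12 treatments, adjusted p, each library left out, libraries Arg_4, Leu_1 and POS_4 left out, and the replicate number as a block. Priors without a trend and further settings of the correlations were added after the data were seen. A check on the data correlated the deviations of same-numbered libraries from their treatment means. For Trp with NEG, r was above 0.1 in 6 of 6 pairs (0.10 to 0.24), and for no other treatment in all pairs. Only 3 Trp libraries correlated best with the NEG library of their own number, against 4 for Thr. The highest same-number r was 0.27, for POS. The labels state no pairing, and this check is weak ground for pairing Trp with NEG.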

Additional observations from a re-analysis of the deposited data

Results flagged for a closer look

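In 5 of the 12 media, 1 library stood apart from its replicates in the FPKM of ENSBTAG00000054661 by Dixon's test at the 95% level. Chance marks about 1 in 20 groups where values are normally distributed, and FPKM are skewed. On log2(FPKM + 1), 2 of these libraries, Trp_1 and Leu_1, stood apart and Val_3, POS_1 and His_1 did not. Trp_1 had 62289 FPKM, beside 1820 to 6451 in the other libraries of Trp. Val_3 had 23006 FPKM, beside 143 to 2312. POS_1 had 18629 FPKM, beside 609 to 5502. His_1 had 12464 FPKM, beside 3862 to 6148. Leu_1 was low, with 438 FPKM beside 2903 to 3801, and had the fewest genes above 0 of all libraries, 10495. In the other 4, the number of genes above 0 was the highest of its medium. It was 17753 in Trp_1, 18393 in Val_3, 17743 in POS_1 and 17296 in His_1. The part of these library measures in the levels of the gene was not tested. The 6 libraries of Met, split into a high and a low set of 3, do not meet this test.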

How the results depend on the processing

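Over the 11 comparisons with NEG, 228 of 234 alternatives kept the direction and the side of the limits, and 0 reversed. The 6 others were limma fits across all genes with no filter on low FPKM, with log2 fold changes of −3.16 for POS, −2.12 for Arg, −2.61 for His, −2.57 for Ile, −1.90 for Met and −2.58 for Trp. Their p in the same order came to 0.080, 0.53, 0.078, 0.078, 0.23 and 0.055 by limma. With a prior without a trend in the same unfiltered fit, all 9 falls were called. For Phe and Thr, which were no DEG, the limma p was 0.88 and 0.90 with no filter and 0.21 and 0.42 in 1 fit of all 12 treatments. The fold change is the same by construction with no filter, a prior without a trend, the block, 1 fit and adjusted p. Direction could not reverse in these settings. Phe and Thr, with changes under 1 on the log2 scale, could not become DEG there and count as kept whatever their p.

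Leaving out each library in turn kept the side of the DEG limits, which use the p before adjustment, in 132 of 132 fits, with log2 fold changes from −3.62 to −2.63 for POS, −2.31 to −1.88 for Arg, −2.84 to −2.51 for His, −2.67 to −2.48 for Ile, −3.99 to −3.37 for Leu, −2.60 to −2.40 for Lys, −2.33 to −1.56 for Met, −3.27 to −2.25 for Trp, −5.73 to −4.27 for Val, 0.81 to 0.97 for Phe and 0.50 to 0.63 for Thr. The share of DEG among all genes moved by over 1.5 times in 13 of these fits, to 1.17%, 4.97%, 4.84% and 1.9% for Arg (without Arg_4, Arg_5, Arg_6 and NEG_2), 6.99% for His (His_1), 8.13% for Leu (Leu_1), 5.9% for Met (Met_1), 4.76%, 1.91% and 1.79% for Trp (Trp_1, Trp_6 and NEG_2), 18% for Val (Val_3), and 0.206% for Phe and 0.33% for Thr (NEG_2). The variance between media ranged from 67.7% to 76.5%, the latter without Val_3.

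With the replicate number as a block, log2 fold changes are the same by construction (−2.58 for Trp) and no DEG call changed. The adjusted p by limma rose past 0.05 for Arg (0.061) and Phe (0.11), and was 0.0058 for Trp and at most 0.021 for the other falls. The exact test of the pairs by sign flips, added after the data were seen, gave −2.58 with p = 0.0625 for Trp. Scaling by total reads shifted the median of all genes by 0.05 (Thr) to 0.14 (Val) on the log2 scale relative to NEG, and the gene by 0.06 to 0.15. The relation to reads on other genes under 200 bp within media was −0.15 (permutation p = 0.23) without Arg_4, Leu_1 and POS_4. The cause of these changes was not tested. Numbers of genes that followed the gene stayed within 1.5 times in the 6 settings tried.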
